A study of Mus musculus with 19 samples.

Results

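Glucocorticoids are steroid hormones of the adrenal cortex that act through the glucocorticoid receptor, a ligand-activated transcription factor held by chaperones in the cytoplasm until hormone binds. In liver the receptor drives genes of gluconeogenesis and amino acid breakdown, and in most tissues it also induces a common set of direct targets. The amount of active hormone inside a liver cell depends on Hsd11b1, the enzyme that regenerates active glucocorticoid from its inactive keto form. The genes described here are the receptor gene Nr3c1, Hsd11b1 and 6 known targets, namely Tsc22d3, Fkbp5, Sgk1, Mt2a, Dusp1 and Errfi1. Members were found as the probes whose gene symbol in the platform annotation was one of these 8 names. Of the 8 genes 6 had a probe, out of 10269 gene symbols in the annotation, with 3 probes each for Hsd11b1 and Tsc22d3 and 1 each for Fkbp5, Sgk1, Dusp1 and Errfi1. All 10 probes passed the detection filter, which kept 14295 of 45281 probes. The annotation names probes of the authors' reduced table of 17592 probes alone, and of its 10269 gene symbols 8529 passed, so most annotated genes did. Nr3c1 was not analysed here because no annotated probe carried its symbol, and whether the array holds an unannotated probe for it was not checked. Mt2a is the name of a human gene and also matched no probe, so the mouse metallothionein gene Mt2 is described beside the members and is not counted among them.

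RNA was measured on single-colour Illumina BeadChips in the livers of 19 mice aged 10 months, with 1 array per animal. The mice were MAT1A KO given SAMe for 8 weeks (KO SAMe, n = 5), MAT1A KO given placebo (KO placebo, n = 6) or MAT1A WT given placebo (WT placebo, n = 8). Mat1a codes for the methionine adenosyltransferase of adult hepatocytes, whose product S-adenosylmethionine (SAMe) supplies methyl groups. Both KO groups carry the same genotype, placebo is shared by the WT group and a KO group, and without a SAMe-treated WT group an effect of SAMe cannot be split from the genotype it was given in. The labels do not say how the KO was made, what sex the mice were, or at what time of day the livers were taken.

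Values are log2 intensities after background correction and quantile normalization, and a probe was called changed at a Benjamini-Hochberg adjusted p under 0.05 over all 14295 probes in 1 limma fit. Mat1a was between 9.50 and 9.77 in KO SAMe livers and between 8.98 and 9.82 in KO placebo livers, against 11.93 to 12.33 in WT placebo livers, and whether its probe lies in the part removed was not checked. All 9 measured hepatocyte markers of 10 listed were detected on all 19 arrays, and Tat was the marker not measured. Between 25.5% and 31.8% of probes were detected per array. Raw background split the arrays into 2 sets that no label names. In 5 arrays, 4 of the 6 KO placebo and 1 of the 8 WT placebo, the median raw intensity was between 93.6 and 100, and in the other 14 it was between 75.1 and 85.8. Each comparison was also fitted with a block for these 2 sets and on the 14 low-background arrays alone, which hold 2 KO placebo, 7 WT placebo and all KO SAMe livers. Counting 1 probe per gene, the block called 37.9% of all genes between KO placebo and WT placebo, 9.36% between KO SAMe and KO placebo and 18.7% between KO SAMe and WT placebo livers. The low-background arrays gave 18.5%, 0.0352% and 15.7% in the same order, so hardly any gene was called there between KO SAMe and KO placebo livers. The 4 bright KO placebo arrays are also those whose animal ID ends in J, while the other 2 end in G, so background and ID letter cannot be told apart in that group. All 8 WT placebo IDs end in K, a letter that no KO placebo ID has. Between KO placebo and WT placebo livers, ID letter and genotype therefore cannot be told apart either. Among KO SAMe livers the IDs of replicates 1 and 5 end in I, those of 2 and 4 in K and that of 3 in G. Only replicate 3 thus shares a letter with a KO placebo ID, so ID letter and SAMe can hardly be told apart between those groups.

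The change with the smallest adjusted p among the members was that of Tsc22d3, the glucocorticoid-induced leucine zipper, which by its probe 1 was 2.61-fold higher in KO placebo than in WT placebo livers and 2.05-fold lower in KO SAMe than in KO placebo livers. Sgk1 and Dusp1 were lower in KO SAMe than in WT placebo livers, by 1.84-fold and 4.41-fold. In KO placebo against WT placebo livers 6 of the 10 member probes, of 4 genes, passed the threshold, against 38.9% of all probes. Of these, 3 were higher (19.5% of all probes) and 3 were lower (19.4% of all probes). The median change over the member probes was 0.05, beside 0.01 over all probes. Between KO SAMe and KO placebo livers 3 of 10 passed, against 17.2% of all probes, with 1 higher (9.5% of all probes) and 2 lower (7.67% of all probes), and the median member change was -0.35 beside -0.01. KO SAMe livers against WT placebo livers had 2 of 10 probes past the threshold, both lower, against 16.2% of all probes called, 8.42% called higher and 7.81% called lower. The first 2 comparisons share the KO placebo arrays and are not independent. In whole liver, fewer cells of a type and less RNA per cell cannot be told apart.

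**Figure D1:**
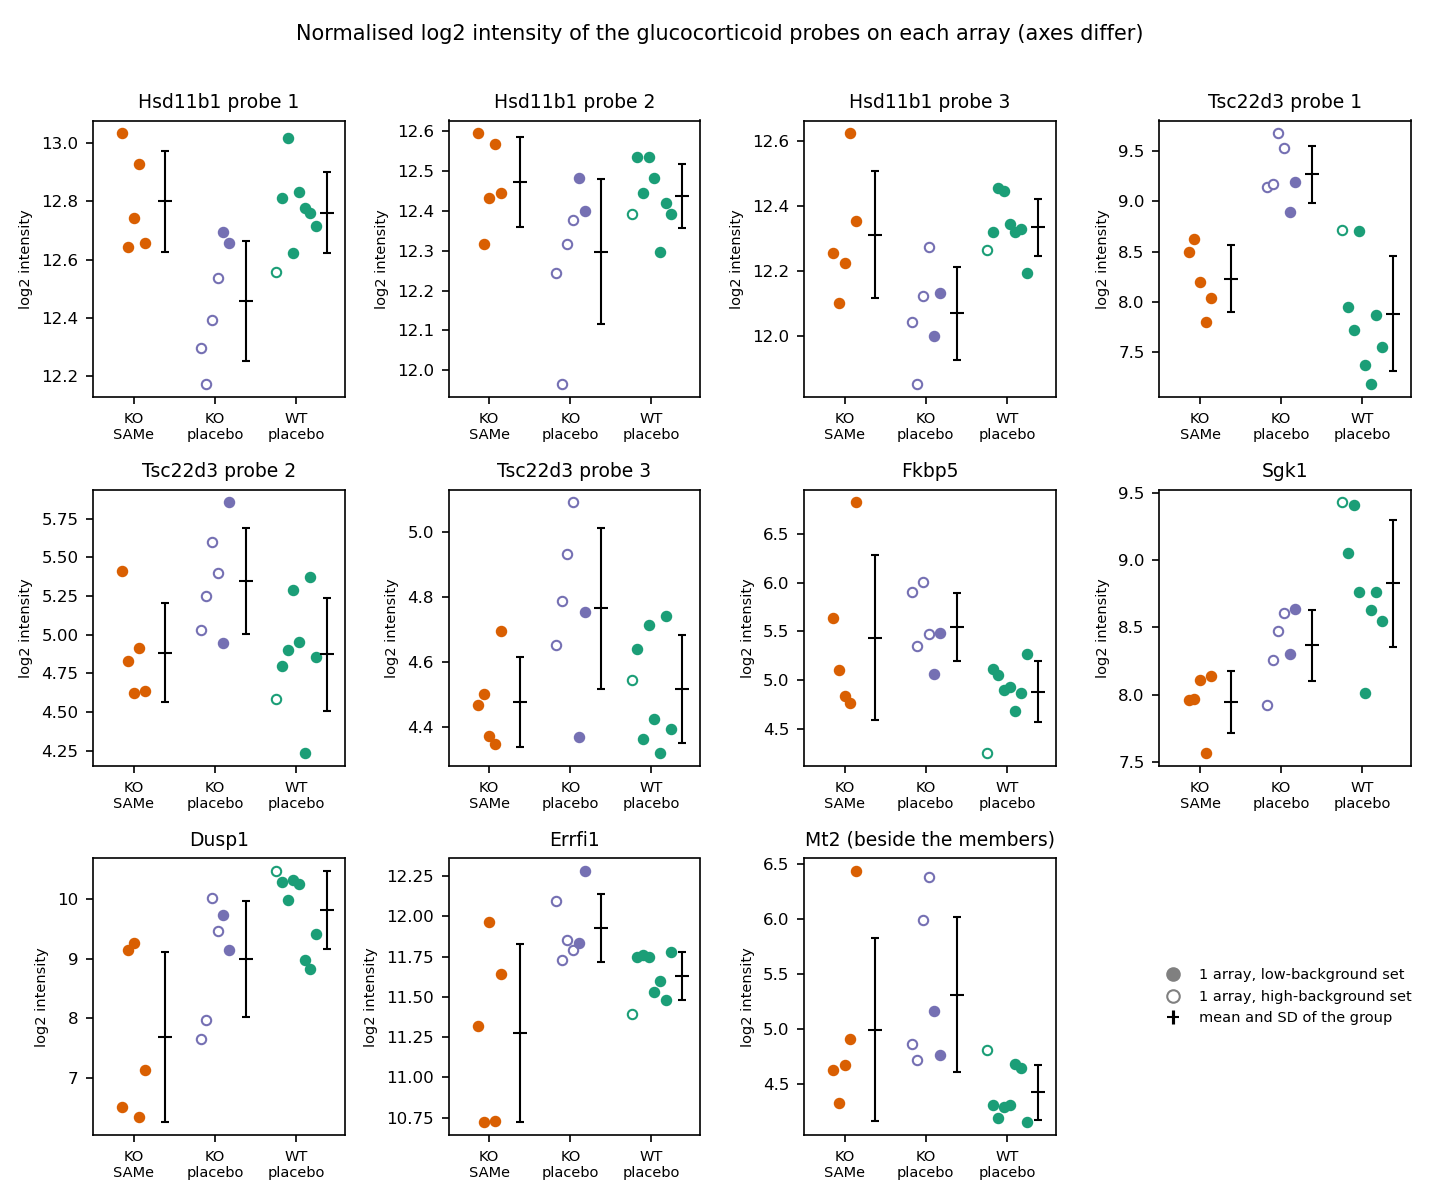
Normalised log2 intensity of each of the 10 member probes and of Mt2 on every array, for KO SAMe, KO placebo and WT placebo livers, with points for single arrays (open points: high-background set) and bars for the group mean and SD. All KO placebo arrays lie above all WT placebo and all KO SAMe arrays for Tsc22d3 probe 1, while Dusp1 spreads widely within KO SAMe livers, from 6.35 to 9.28.

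**Figure D2:**
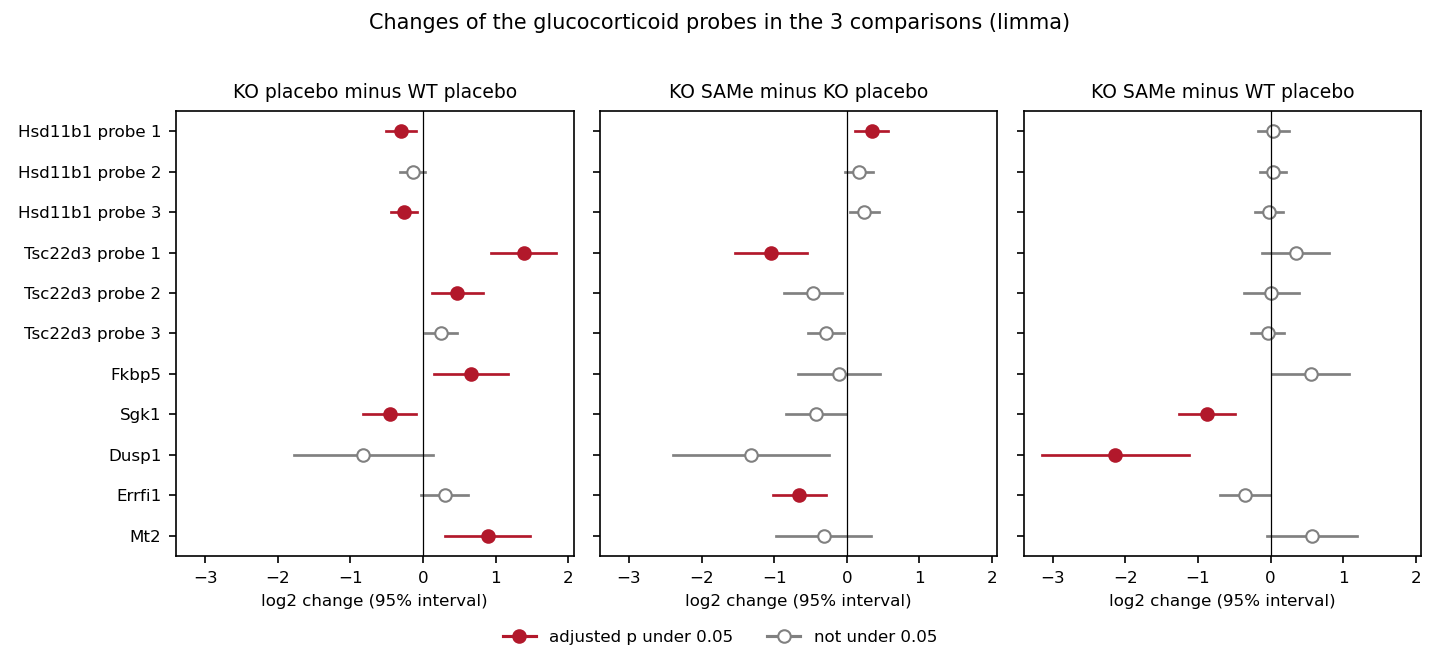
Log2 change with its 95% interval for each member probe and Mt2 in the 3 comparisons, filled red where the limma adjusted p was under 0.05. Tsc22d3 probe 1 is the member farthest to the right in the first panel at 1.38, and Dusp1 is farthest to the left in the third at -2.14.

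Hsd11b1, the activating enzyme, changed by less than any other member that passed the threshold. By probe 1 its log2 intensities were 13.03, 12.64, 12.74, 12.93 and 12.66 in the 5 KO SAMe livers. The lowest, median and highest values were 12.17, 12.46 and 12.70 in KO placebo livers, against 12.56, 12.77 and 13.02 in WT placebo livers. The arrays of KO placebo livers reached lower than those of both other groups, with overlap. Probe 1 was 1.23-fold lower in KO placebo than in WT placebo livers (log2 change -0.30, SE 0.10, adjusted p = 0.018). Probe 3 was lower by a similar amount, with a log2 change of -0.26 (adjusted p = 0.019), and probe 2 gave -0.14 and did not pass (adjusted p = 0.2). All 3 probes are annotated to the same transcript record. With SAMe, in KO SAMe against KO placebo livers, probe 1 was 1.27-fold higher (log2 change 0.34, SE 0.11, adjusted p = 0.036), while probes 2 and 3 gave 0.17 (adjusted p = 0.22) and 0.24 (adjusted p = 0.092). Between KO SAMe and WT placebo livers the interval of the probe 1 change was -0.18 to 0.26, and no probe passed. Under the background block all 3 calls ended, with probe 1 at -0.15 (adjusted p = 0.29) between KO placebo and WT placebo livers, probe 1 at 0.15 (adjusted p = 0.48) between KO SAMe and KO placebo livers, and probe 3 at -0.25 (adjusted p = 0.072). They ended on the low-background arrays too, at -0.11 (adjusted p = 0.63) and -0.28 (adjusted p = 0.17) for probes 1 and 3 between KO placebo and WT placebo livers and 0.13 (adjusted p = 0.74) for probe 1 between KO SAMe and KO placebo livers. Within KO placebo livers probe 1 averaged 12.35 on the 4 high-background arrays and 12.68 on the 2 low-background arrays. Both calls of KO placebo against WT placebo livers also ended without KO placebo replicate 2, at -0.25 and -0.22 (adjusted p = 0.062 and 0.063 for probes 1 and 3), and the call for KO SAMe livers ended without any of 6 single arrays, with an adjusted p of up to 0.098.

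Fkbp5 codes for a co-chaperone that lowers the receptor's affinity for hormone and is itself induced by the receptor, a negative feedback loop. Its log2 intensities were 5.64, 5.11, 4.84, 4.77 and 6.83 in KO SAMe livers. Lowest, median and highest, they were 5.06, 5.48 and 6.01 in KO placebo livers, against 4.25, 4.92 and 5.27 in WT placebo livers. One KO SAMe liver, replicate 5, stood above every other array of the study, and the KO placebo and WT placebo arrays overlapped. Fkbp5 was 1.58-fold higher in KO placebo than in WT placebo livers (log2 change 0.66, SE 0.24, adjusted p = 0.035). The background block ended the call (0.68, adjusted p = 0.086), as did the low-background arrays alone (0.30, adjusted p = 0.64) and the loss of KO placebo replicate 1 or 3 or WT placebo replicate 1 or 6, with an adjusted p of up to 0.09. The change was -0.11 (interval -0.67 to 0.46, adjusted p = 0.84) between KO SAMe and KO placebo livers and 0.55 (interval 0.02 to 1.09, adjusted p = 0.15) between KO SAMe and WT placebo livers. The probe was detected on all 5 KO SAMe and all 6 KO placebo arrays and on 7 of 8 WT placebo arrays. It was near background in WT placebo livers, at raw intensities of 84.4 to 102, so the size of its fold is uncertain.

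Tsc22d3 codes for a leucine zipper protein that carries part of the anti-inflammatory action of glucocorticoids. By probe 1 its log2 intensities were 8.49, 8.62, 8.20, 7.80 and 8.04 in KO SAMe livers. The lowest, median and highest values were 8.90, 9.18 and 9.68 in KO placebo livers, against 7.18, 7.80 and 8.72 in WT placebo livers. Every KO placebo array was above every array of both other groups, and the KO SAMe and WT placebo arrays overlapped. Such a separation of the 2 groups compared was seen for 15.7% of all probes in KO placebo against WT placebo livers and for 8.51% in KO SAMe against KO placebo livers, and Tsc22d3 probe 1 was the only member probe of the 10 that showed it in either. No member probe did so between KO SAMe and WT placebo livers, against 5.67% of all probes. The group means were 8.23 ± 0.33 (SD, n = 5) in KO SAMe, 9.27 ± 0.29 (SD, n = 6) in KO placebo and 7.89 ± 0.57 (SD, n = 8) in WT placebo livers. KO placebo differed from WT placebo livers by a log2 change of 1.38 (SE 0.21, adjusted p = 2.4e-05). KO SAMe differed from KO placebo livers by -1.04 (SE 0.24, adjusted p = 0.0053). Between KO SAMe and WT placebo livers it was 0.35 (interval -0.12 to 0.81, adjusted p = 0.33).

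The rise of Tsc22d3 in KO placebo livers was also called in both further fits, at 1.28 (adjusted p = 0.0062) on the low-background arrays and at 1.07 (adjusted p = 0.0012) under the background block. Its fall with SAMe kept its direction and lost its call, at -0.65 (adjusted p = 0.13) with the block and -0.81 (adjusted p = 0.2) within the low-background set, where 2 KO placebo livers remain. Leaving out any single array kept both calls. The 3 probes of Tsc22d3 are annotated to 3 different transcript records. Probe 2 ranged over 4.62 to 5.41 in KO SAMe and 4.95 to 5.86 in KO placebo livers, against 4.23 to 5.38 in WT placebo livers. It was higher in KO placebo livers by 0.47 (adjusted p = 0.032), a call that ended on the low-background arrays (0.49, adjusted p = 0.24) and without any of 5 single arrays (adjusted p of up to 0.097), and its change with SAMe was -0.46 (adjusted p = 0.1). Probe 3, detected on 1 of 5 KO SAMe, 5 of 6 KO placebo and 4 of 8 WT placebo arrays, had the same signs at 0.25 (adjusted p = 0.068) and -0.29 (adjusted p = 0.1).

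Promoters were read from RefSeq (GRCm38.p6), as the 250 bases before and 50 after each annotated start, for the 14 starts of the 6 members, and 4 motifs were searched on both strands. These were the palindromic glucocorticoid response element (AGAACA, a gap of 3 bases of any kind, then TGTTCT), its arm alone (AGAACA, or TGTTCT on the other strand), the E-box CACGTG bound by clock proteins, and the cyclic AMP response element TGACGTCA. The full element holds both arms, so a promoter with it counts for both motifs. The arm was in 4 of the 14 member promoters, 1 of Tsc22d3 and 3 of Sgk1, and in 19% of all 32851 promoters. Of the 3 Tsc22d3 starts, 1 had the arm, 185 bases before it. That promoter is shown because Tsc22d3 is the member with the smallest adjusted p. It lies on the minus strand at chrX:140600473-140600772, with the arm in capitals.
Tsc22d3: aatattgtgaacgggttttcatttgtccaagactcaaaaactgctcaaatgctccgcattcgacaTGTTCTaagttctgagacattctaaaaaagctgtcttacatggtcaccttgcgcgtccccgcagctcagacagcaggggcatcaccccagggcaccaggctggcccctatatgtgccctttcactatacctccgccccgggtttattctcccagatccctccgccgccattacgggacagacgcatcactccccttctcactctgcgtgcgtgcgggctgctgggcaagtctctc

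Sgk1 codes for a kinase that acts on ion channels and transporters and is induced by glucocorticoids and by serum. Its log2 intensities were 7.96, 7.97, 8.11, 7.56 and 8.14 in KO SAMe livers. Lowest, median and highest, they were 7.92, 8.39 and 8.63 in KO placebo livers, against 8.02, 8.76 and 9.43 in WT placebo livers. The order of the groups was WT placebo above KO placebo above KO SAMe, with arrays of neighbouring groups overlapping and 1 WT placebo array at 8.02 within the range of KO SAMe livers. Sgk1 was 1.84-fold lower in KO SAMe than in WT placebo livers (log2 change -0.88, SE 0.19, adjusted p = 0.0025). That call remained without any single array, with an adjusted p of at most 0.011, and within the low-background set (-0.79, adjusted p = 0.0073). The change in KO placebo against WT placebo livers was -0.46 (SE 0.18, adjusted p = 0.044), a call that lay at the threshold under the background block (-0.56, adjusted p just under 0.05) and ended without any of 9 single arrays (adjusted p of up to 0.12) and on the low-background arrays (-0.27, adjusted p = 0.52). That in KO SAMe against KO placebo livers was -0.42 (interval -0.83 to -0.01, adjusted p = 0.16) and did not pass. Sgk1 is the member whose promoter letters hold the full response element, at 1 of its 6 annotated starts and 189 bases before it, where 3 of 32851 promoters (0.00913%) do. The same promoter has a further arm 242 bases and an E-box 246 bases before the start, which overlap, and the matches are in capitals below (plus strand, chr10:21993640-21993939).
Sgk1: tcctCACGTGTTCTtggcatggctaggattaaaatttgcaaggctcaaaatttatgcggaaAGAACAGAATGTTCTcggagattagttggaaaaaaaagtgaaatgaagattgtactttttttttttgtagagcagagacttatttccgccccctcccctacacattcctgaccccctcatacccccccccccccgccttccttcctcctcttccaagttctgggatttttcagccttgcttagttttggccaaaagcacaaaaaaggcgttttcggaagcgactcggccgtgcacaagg

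Errfi1 codes for a feedback inhibitor of the EGF receptor. Its log2 intensities were 11.32, 10.72, 11.96, 10.73 and 11.64 in KO SAMe livers. The lowest, median and highest values were 11.73, 11.84 and 12.28 in KO placebo livers, against 11.39, 11.67 and 11.78 in WT placebo livers. The KO SAMe livers were spread, with replicates 2 and 4 lowest and replicate 3 within the range of KO placebo livers. Errfi1 was 1.57-fold lower in KO SAMe than in KO placebo livers (log2 change -0.66, SE 0.18, adjusted p = 0.014). The background block kept the call (-0.80, adjusted p = 0.031) and the low-background arrays alone did not (-0.78, adjusted p = 0.16), nor did the fit without KO SAMe replicate 4 (-0.52, adjusted p = 0.052). It gave 0.30 (interval -0.03 to 0.63, adjusted p = 0.14) in KO placebo against WT placebo livers and -0.36 (interval -0.70 to -0.01, adjusted p = 0.16) in KO SAMe against WT placebo livers. Against WT placebo it passed without KO SAMe replicate 3, at -0.53 (adjusted p = 0.026).

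Dusp1 codes for a phosphatase that switches off MAP kinases, and it responds to stress and growth signals as well as to glucocorticoids. Its log2 intensities were 6.51, 9.15, 9.28, 6.35 and 7.13 in KO SAMe livers. Lowest, median and highest, they were 7.65, 9.31 and 10.02 in KO placebo livers, against 8.82, 10.13 and 10.47 in WT placebo livers. KO SAMe replicates 1, 4 and 5 were below every array of the other groups, and replicates 2 and 3 were inside the range of both. Dusp1 was 4.41-fold lower in KO SAMe than in WT placebo livers (log2 change -2.14, SE 0.49, adjusted p = 0.0044), and the call remained without any single array (log2 changes from -2.54 to -1.81) and within the low-background set (-2.05, adjusted p = 0.0076). The change was -0.82 (interval -1.78 to 0.14, adjusted p = 0.17) in KO placebo against WT placebo livers and -1.32 (interval -2.39 to -0.24, adjusted p = 0.085) in KO SAMe against KO placebo livers. With SAMe it passed without KO placebo replicate 1 (-1.59, adjusted p = 0.049), without KO SAMe replicate 2 (-1.68, adjusted p = 0.031) and without KO SAMe replicate 3 (-1.71, adjusted p = 0.029). Dusp1 and Errfi1 are the members whose promoters hold the cyclic AMP response element, 143 and 51 bases before the start, against 1.79% of all promoters, and the Dusp1 promoter also has an E-box 126 bases before it. An E-box was in 7.15% of all promoters and in 3 of the 14 member promoters, those of Sgk1, Dusp1 and Fkbp5. Both promoters are shown with the matches in capitals, from the minus strand at chr17:26508423-26508722 for Dusp1 and the plus strand at chr4:150854820-150855119 for Errfi1.
Dusp1: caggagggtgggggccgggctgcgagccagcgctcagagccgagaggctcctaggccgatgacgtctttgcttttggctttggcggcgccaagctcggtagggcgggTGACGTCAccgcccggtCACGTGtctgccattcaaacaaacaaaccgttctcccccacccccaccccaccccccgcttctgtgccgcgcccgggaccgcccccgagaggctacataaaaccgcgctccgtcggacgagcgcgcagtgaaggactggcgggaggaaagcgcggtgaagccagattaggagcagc
Errfi1: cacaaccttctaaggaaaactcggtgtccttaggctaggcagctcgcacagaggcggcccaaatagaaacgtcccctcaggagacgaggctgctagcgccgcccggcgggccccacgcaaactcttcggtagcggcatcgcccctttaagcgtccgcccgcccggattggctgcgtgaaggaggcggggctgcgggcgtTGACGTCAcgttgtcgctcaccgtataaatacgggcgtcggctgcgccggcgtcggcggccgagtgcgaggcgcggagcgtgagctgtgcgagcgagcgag

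Mt2, a metallothionein that binds zinc and copper and is induced by metals as well as by glucocorticoids, had log2 intensities of 4.63, 4.32, 4.67, 4.91 and 6.44 in KO SAMe livers. The lowest, median and highest values were 4.72, 5.02 and 6.39 in KO placebo livers, against 4.15, 4.31 and 4.81 in WT placebo livers. The probe was near background and was detected on 4 of 5 KO SAMe, all 6 KO placebo and 3 of 8 WT placebo arrays, so its level in WT placebo livers is in part a bound. Mt2 was higher in KO placebo than in WT placebo livers by 0.89 on the log2 scale (SE 0.28, adjusted p = 0.015), and the call was lost without KO placebo replicate 4 (0.68, adjusted p = 0.053) under the background block (0.62, adjusted p = 0.16) and on the low-background arrays (0.60, adjusted p = 0.29). Its change was -0.32 (adjusted p = 0.54) in KO SAMe against KO placebo livers and 0.57 (adjusted p = 0.21) in KO SAMe against WT placebo livers.

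**Figure D3:**
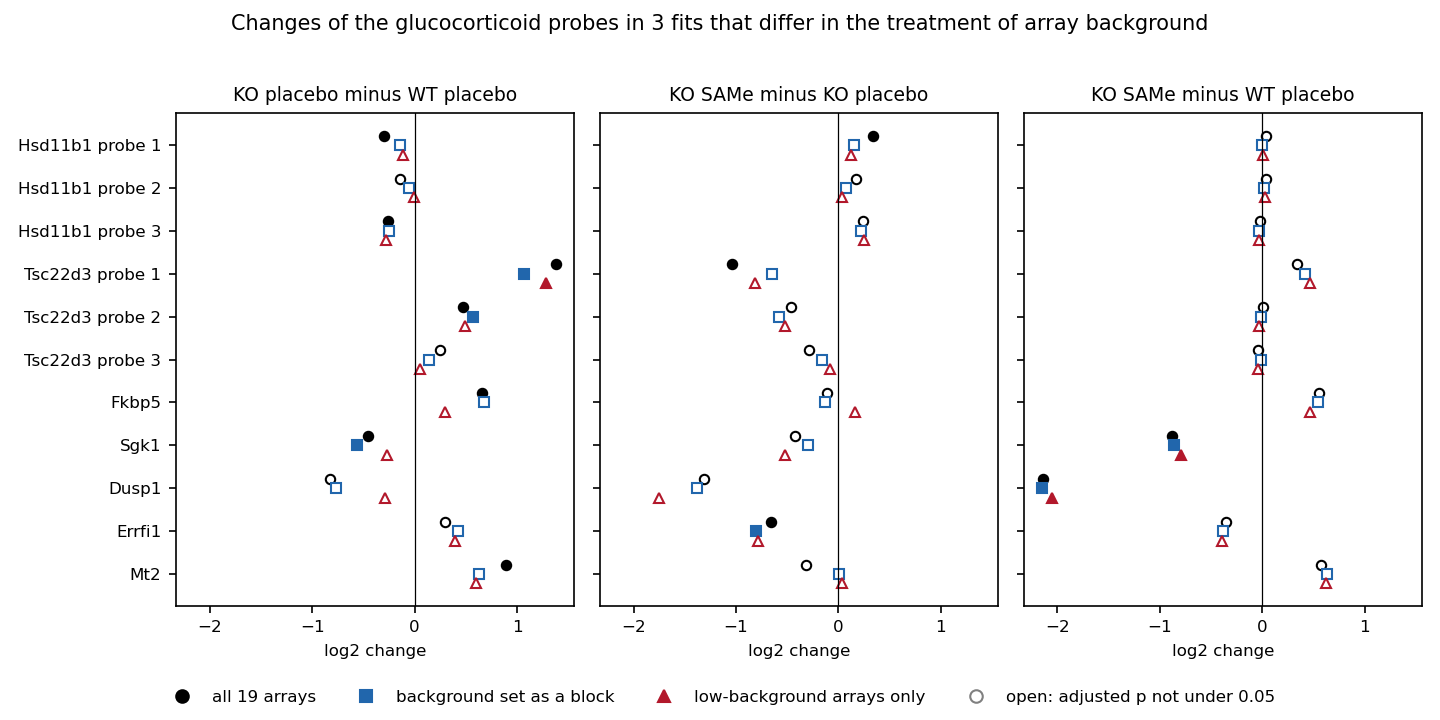
Log2 changes of the member probes and Mt2 in the 3 comparisons from the fit on all 19 arrays, the fit with background as a block and the fit on the 14 low-background arrays, filled where the adjusted p was under 0.05. In the middle panel Errfi1 is the only filled symbol apart from the fit on all arrays, and in the right panel Sgk1 and Dusp1 are filled in all 3 fits.

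The wider set of glucocorticoid targets described in many tissues counted more rises than falls in KO placebo livers. It includes 5 of the members and Mt2. This list and those below were chosen with earlier results of these data known, so their counts and medians are descriptions and not tests. Of 27 listed genes 23 were measured, 1 probe each, and 10 of these rose and 1 fell in KO placebo against WT placebo livers. That is 47.8% of them, near the 42.8% called over all genes, of which 21% were higher and 21.8% lower. The median change of the 23 targets was 0.57, beside 0.01 over all genes. Besides Tsc22d3, the largest moderated t values were those of Lcn2, an acute phase protein that binds bacterial iron carriers, the metallothionein gene Mt1, and Cdkn1a, an inhibitor of the cell cycle kinases. Lcn2 ranged over 6.83 to 8.02 in KO SAMe and 8.09 to 10.05 in KO placebo livers, against 4.27 to 6.12 in WT placebo livers, where 5 of 8 arrays detected it. It was 14.5-fold higher in KO placebo livers (adjusted p = 3.1e-09). Mt1 ranged over 11.98 to 13.33 in KO SAMe and 12.39 to 13.28 in KO placebo livers, against 8.42 to 10.71 in WT placebo livers, and was 11.5-fold higher in KO placebo livers (adjusted p = 5.1e-09). The arrays of both KO groups lay above all WT placebo arrays for these 2 genes. Cdkn1a was detected on none of the 8 WT placebo arrays, so no fold is given, and it ranged over 4.55 to 6.02 in KO SAMe and 5.09 to 6.01 in KO placebo livers (adjusted p = 2.6e-06 for KO placebo against WT placebo). Lcn2, Mt1 and Cdkn1a respond to inflammation, metals and DNA damage as well as to glucocorticoids.

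Between KO SAMe and KO placebo livers 7 of the 23 targets fell and none rose by limma, where 19.5% of all genes were called, 11.8% higher and 7.74% lower, and at an unadjusted p under 0.05 the counts were 11 and 0. The median change was -0.51, beside 0.01 over all genes. The largest moderated t values were those of Cebpb, a transcription factor of gluconeogenesis and the acute phase, Rhob, a small GTPase, Lcn2 and Tsc22d3. Cebpb ranged over 8.11 to 10.08 in KO SAMe and 10.52 to 11.49 in KO placebo livers, against 8.77 to 10.03 in WT placebo livers. Its KO SAMe arrays were all below its KO placebo arrays, and it was 3.31-fold lower with SAMe (log2 change -1.73, adjusted p = 0.00054). Rhob was 2.05-fold lower (adjusted p = 0.00055) and Lcn2 2.64-fold lower (adjusted p = 0.0053), also with no overlap of the arrays. The other targets that fell were Per1 (-1.02, adjusted p = 0.0072), Errfi1 and Nfkbia (-0.51, adjusted p = 0.034), an inhibitor of NF-kappaB. KO SAMe livers against WT placebo livers had 3 targets higher (Lcn2, Mt1 and Cdkn1a) and 2 lower (Sgk1 and Dusp1), where 18.3% of all genes were called, 10.1% higher and 8.22% lower, and the median was 0.02. The rise of Cdkn1a there was 0.91 (adjusted p = 0.0016) by its brightest probe, while its other probe gave 0.12 (adjusted p = 0.59). No WT placebo array detected the brightest probe, so its WT placebo level is a bound. Under the background block the counts were 7 higher and 1 lower for KO placebo against WT placebo. That was 34.8% of the list, where 37.9% of all genes were called, 19.3% higher and 18.6% lower. KO SAMe against KO placebo had 0 higher by limma and 3 lower under the block (9 at an unadjusted p under 0.05), where 9.36% of all genes were called, 4.48% lower. The 3 were Cebpb (-1.76, adjusted p = 0.0079), Rhob (-0.87, adjusted p = 0.016) and Errfi1. The calls of Lcn2 (-1.19, adjusted p = 0.072), Per1, Nfkbia and Tsc22d3 therefore ended. Within the low-background arrays the counts were 5 higher and 0 lower for KO placebo against WT placebo (9 at an unadjusted p under 0.05). In that fit 18.5% of all genes were called, 9.59% higher and 8.96% lower. There limma called 0 targets between KO SAMe and KO placebo, with 8 at an unadjusted p under 0.05.

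**Figure D4:**
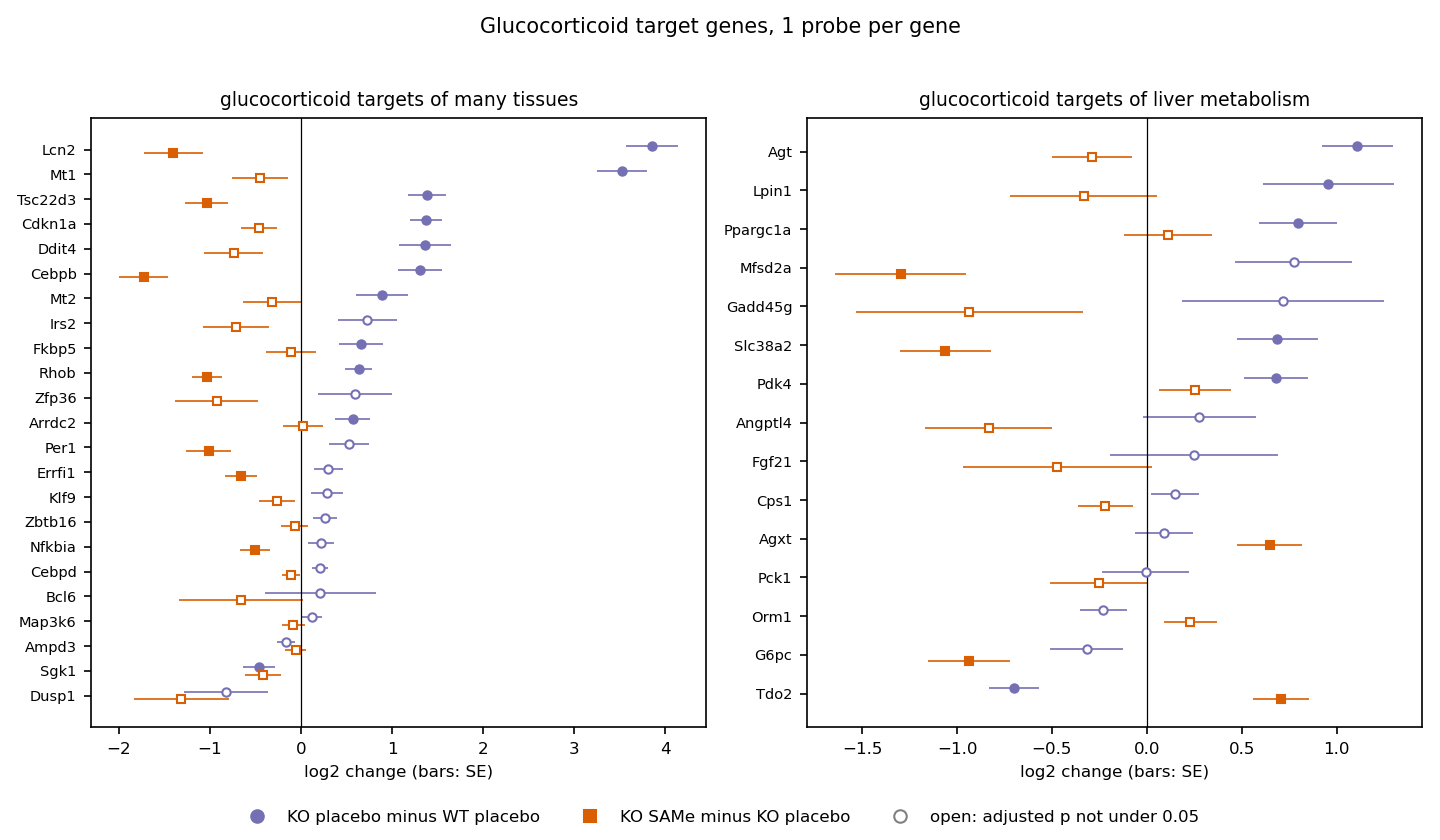
Log2 change with its SE for each measured glucocorticoid target, 1 probe per gene, in KO SAMe minus KO placebo (squares) and KO placebo minus WT placebo (circles), filled where the adjusted p was under 0.05. Of the 23 targets of many tissues in the left panel, 10 circles are filled right of 0 and 7 squares are filled left of 0, and the 15 targets of liver metabolism in the right panel are mixed.

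Of 20 listed targets of liver metabolism 15 were measured, and 5 rose and 1 fell in KO placebo against WT placebo livers, with a median of 0.28. That is 40% of them, near the 42.8% called over all genes. The rises included Agt, the precursor of angiotensin (2.16-fold, adjusted p = 6.7e-05), Ppargc1a, a coactivator of gluconeogenesis (1.74-fold, adjusted p = 0.0034) and Pdk4, a kinase that blocks pyruvate oxidation (log2 change 0.68, adjusted p = 0.0027), which was detected on all KO arrays and on 4 of 8 WT placebo arrays. Tdo2, which starts tryptophan breakdown and is a classical hepatic glucocorticoid target, was 1.62-fold lower (adjusted p = 0.00021). Its probe was detected on all arrays but was dim, at 4.53 to 5.39 in KO placebo and 5.31 to 5.83 in WT placebo livers. The size of its folds is therefore uncertain. The background block left 4 rises and the fall of Tdo2 (33.3% of the list, against 37.9% of all genes). On the low-background arrays, where 18.5% of all genes were called, Ppargc1a (0.92, adjusted p = 0.009) was the 1 gene of the 15 still called, with 5 at an unadjusted p under 0.05. Tdo2 was there at -0.35, adjusted p = 0.16, Agt at 0.72, adjusted p = 0.086 and Pdk4 at 0.73, adjusted p = 0.066. With SAMe, against KO placebo livers, 2 rose and 3 fell (33.3%, against 19.5% of all genes), with a median of -0.29. Tdo2 was 1.63-fold higher (adjusted p = 0.0028) and Agxt, which turns glyoxylate into glycine, 1.57-fold higher (adjusted p = 0.013). G6pc, the last enzyme of glucose release, was 1.92-fold lower (adjusted p = 0.0052), and the amino acid transporter gene Slc38a2 2.09-fold lower (adjusted p = 0.0047), although its other 2 probes gave -0.37 and 0.05 and did not pass. The third that fell was Mfsd2a, a lipid transporter gene (-1.30, adjusted p = 0.013). Pck1, the other key gluconeogenic enzyme, gave -0.01 (adjusted p = 0.99) and -0.25 (adjusted p = 0.56) in these comparisons. The background block left 2 of the 5 calls with SAMe, G6pc (-0.90, adjusted p = 0.046) and Slc38a2 (-1.06, adjusted p = 0.038), and on the low-background arrays limma called 0, with 3 at an unadjusted p under 0.05. Between KO SAMe and WT placebo livers 4 genes were higher (Agt, Agxt, Pdk4 and Ppargc1a) and 1, G6pc, was lower, by 2.39-fold with no overlap of the arrays (adjusted p = 2e-04). All 5 were also called with the block and on the low-background arrays, and they make up 33.3% of the list, against 18.3% of all genes.

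Of the receptor's chaperones and cofactors 10 of 17 were measured, and 6 rose and 0 fell by limma in KO placebo against WT placebo livers, also at an unadjusted p under 0.05, with a median of 0.37. That is 60% of them, against 42.8% of all genes (21% higher), but the background block left 2 of the 6, Fkbp4 and Crebbp, and the low-background arrays left Fkbp4. Among the 6 is Fkbp5, which is itself a member. Fkbp4 codes for the co-chaperone that exchanges with Fkbp5 on the receptor. It ranged over 9.23 to 9.73 in KO SAMe and 9.58 to 10.14 in KO placebo livers, against 8.69 to 9.36 in WT placebo livers. All KO placebo arrays lay above all WT placebo arrays, and it was 1.59-fold higher (adjusted p = 6.9e-05), with log2 changes of 0.70, adjusted p = 0.00054, under the block and 0.46, adjusted p = 0.04, on the low-background arrays. Hspa8, the constitutive heat shock chaperone, was 1.47-fold higher by its brightest probe (adjusted p = 0.0054), and its other 2 probes gave log2 changes of 1.61 and 0.85 beside 0.56. The call of the brightest probe ended under the block (0.30, adjusted p = 0.15) and on the low-background arrays (0.09, adjusted p = 0.77). With SAMe, against KO placebo livers, the other 2 Hspa8 probes were called lower, at -1.65 (adjusted p = 0.0014) and -1.41 (adjusted p = 0.013). The brightest Hspa8 probe gave -0.41 (adjusted p = 0.11). Hsp90aa1, a chaperone that holds the receptor in its hormone-binding form, was also among the 6 but was detected on none of the 8 WT placebo arrays, and its call ended in both fits too (adjusted p = 0.11 and 0.28). Crebbp, a histone acetyltransferase that the receptor recruits, was higher by 0.47 (adjusted p = 0.0011) in KO placebo livers. Counting brightest probes alone, it was the gene of this list called lower with SAMe, at -0.50 (adjusted p = 0.0062), while its other probe gave -0.19. Its brightest probe was detected on 1 of 5 KO SAMe, 5 of 6 KO placebo and 3 of 8 WT placebo arrays, so its values in KO SAMe and WT placebo livers are in large part bounds. The fall with SAMe ended under the block (-0.32, adjusted p = 0.13), and the rise in KO placebo livers ended on the low-background arrays (0.22, adjusted p = 0.34).

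Among genes of glucocorticoid supply and clearance, 7 of 11 were measured, and 1 rose and 3 fell in KO placebo against WT placebo livers (57.1%, against 42.8% of all genes). The member Hsd11b1 is among the 3 that fell. H6pd, which makes the cofactor that Hsd11b1 uses in the endoplasmic reticulum, was 1.59-fold higher (adjusted p = 0.0016). It ranged over 9.43 to 10.32 in KO SAMe and 9.78 to 10.57 in KO placebo livers, against 9.09 to 9.89 in WT placebo livers. Cyp3a11, a cytochrome P450 that hydroxylates steroids, was 2.16-fold lower (adjusted p = 0.00036). The steroid reductase gene Akr1c6 was lower with all KO placebo arrays below all WT placebo arrays (log2 change -0.90, adjusted p = 0.00013). Akr1c6 was detected on 1 of 6 KO placebo arrays, so its level there is in large part a bound. Hsd11b1, Cyp3a11 (0.75, adjusted p = 0.04) and Akr1c6 (0.54, adjusted p = 0.043) were the 3 that rose in KO SAMe against KO placebo livers (42.9%, against 19.5% of all genes), and the background block ended each of these calls. Between KO placebo and WT placebo livers the block kept H6pd, Cyp3a11 and Akr1c6, while on the low-background arrays Cyp3a11 was called (-1.07, adjusted p = 0.017) and H6pd (0.63, adjusted p = 0.073) and Akr1c6 (-0.76, adjusted p = 0.059) were not. Serpina6, the carrier of glucocorticoid in blood, gave -0.31 (adjusted p = 0.24) and 0.13 (adjusted p = 0.75).

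Clock and immediate early genes, which share inducers with the members, were set beside them. Of 19 clock genes 11 were measured, and 3 rose in KO placebo against WT placebo livers (Per2, Rora and Clock), while 5 fell with SAMe (Bhlhe40, Rora, Per1, Per2 and Dbp), with medians of 0.24 and -0.75. The shares are 27.3%, against 42.8% of all genes, and 45.5%, against 19.5% of all genes (7.74% lower). Bhlhe40, a repressor within the clock, was 2.96-fold lower with SAMe (adjusted p = 0.0027) and Rora, a nuclear receptor that drives the clock's positive arm, 2.27-fold lower (adjusted p = 0.00077), both with no overlap of the arrays. Per1 and Per2, clock repressors that the glucocorticoid receptor also induces, changed by -1.02 (adjusted p = 0.0072) and -0.87 (adjusted p = 0.0027) with SAMe. Per1 is also counted among the glucocorticoid targets of many tissues. Under the background block Rora was the 1 clock gene still called with SAMe (-1.08, adjusted p = 0.018), and on the low-background arrays limma called 0, Rora included (-0.95, adjusted p = 0.13), with 3 at an unadjusted p under 0.05. Of the 3 rises in KO placebo livers the block kept all, while on the low-background arrays Clock was called (0.74, adjusted p = 0.031) and Rora (0.67, adjusted p = 0.11) and Per2 (0.51, adjusted p = 0.12) were not. Of 19 immediate early genes 12 were measured, and 3 rose in KO placebo livers (Klf6, Jund and Fosl2) while 2 fell with SAMe (Klf6 and Fosl2), shares of 25% and 16.7%, against 42.8% and 19.5% of all genes. The rises of Klf6 and Jund were called in both further fits and that of Fosl2 in neither (0.37, adjusted p = 0.11, under the block), and the block ended both falls (-0.35, adjusted p = 0.34, for Klf6 and -0.28, adjusted p = 0.43, for Fosl2). Fos, the standard mark of acute stimulation, gave 0.34 (adjusted p = 0.66) and -0.55 (adjusted p = 0.59) with an SE of 0.53 and 0.59. The part that time of day has in the members' changes was not tested.

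Across the 19 arrays, after the group means were removed, the genes most like Tsc22d3 probe 1 were Bdkrb1 (Pearson r = 0.84, Spearman rho = 0.86), Rnf113a1 (0.83 and 0.77) and H4c18 (0.80 and 0.63), of 8528 genes compared. Those most like Fkbp5 were 1810055G02Rik (0.85 and 0.77), Cebpb (0.82 and 0.77) and Usp2 (0.81 and 0.78). Without the 2 arrays farthest from the median the r values were 0.61 to 0.77 for the 3 genes like Tsc22d3 and 0.62 to 0.72 for those like Fkbp5. These are descriptions of values that share an array, its background and its normalization, chosen as the highest of many.

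Some markers of other cells were called in the same comparisons as the members, and their counts are read beside those of all genes. Between KO placebo and WT placebo livers 42.8% of all genes were called, 21% higher and 21.8% lower. With SAMe, against KO placebo livers, 19.5% were called, 11.8% higher and 7.74% lower. Between KO SAMe and WT placebo livers 18.3% were called. The shares under the background block and on the low-background arrays are given above. The summed linear intensity of the 6 measured stellate cell markers of 8 ranged over 1671 to 2320 in KO SAMe and 1854 to 2675 in KO placebo livers, against 1358 to 2050 in WT placebo livers, and 4 of the 6 were detected on all arrays. Of the 6, 3 rose in KO placebo against WT placebo livers (Reln, Col1a1 and Dcn), calls that the background block ended. The 8 measured Kupffer and macrophage markers of 10 ranged over 482 to 825 and 541 to 940 in the KO SAMe and KO placebo livers, against 536 to 1106 in WT placebo livers, and Clec4f was lower in KO placebo than in WT placebo livers (-0.68, adjusted p = 0.00048) with no other of them called. The 6 measured sinusoidal endothelial markers of 8 ranged over 824 to 1501 in KO SAMe and 1101 to 1990 in KO placebo livers, against 1296 to 2032 in WT placebo livers, with medians of 1058, 1379 and 1612, so the median sum was lower in both KO groups than in WT placebo livers. Stab2 and Pecam1 among them rose in KO placebo livers (0.74 and 0.37) and fell with SAMe (-0.62 and -0.41). The other 4 (Cdh5, Clec4g, Oit3 and Eng) lay between -0.26 and 0.28 in KO placebo against WT placebo livers and between -0.36 and 0.06 with SAMe. In the fit on all 19 arrays none of these 4 passed in either comparison. The background block ended the falls of Stab2 and Pecam1 with SAMe and called Clec4g lower there. For KO placebo against WT placebo the block called Eng higher beside Stab2 and Pecam1. On the low-background arrays no endothelial marker was called in either comparison. Clec4g was lower in KO SAMe than in WT placebo livers (-0.62, adjusted p = 0.024). Of the lymphocyte markers 2 of 10, of the neutrophil markers 2 of 8 and of the cholangiocyte markers 2 of 6 were measured, and none of the first 2 lists was detected on all arrays. The lymphocyte marker Cd79b was lower in KO SAMe (-0.40, adjusted p = 0.01) and in KO placebo livers (-0.49, adjusted p = 0.00032), each against WT placebo livers. The 2 cholangiocyte markers summed to 89 to 288 in KO SAMe and 104 to 161 in KO placebo livers, against 57 to 123 in WT placebo livers. Of these Sox9 was higher in KO SAMe (1.09, adjusted p = 0.0099) and in KO placebo livers (0.77, adjusted p = 0.024), each against WT placebo livers, and Krt7 was called in neither. The 3 measured pancreatic acinar markers of 7 ranged over 1646 to 2701 in KO SAMe and 1379 to 2430 in KO placebo livers, against 2101 to 3005 in WT placebo livers, with 2 of them detected on all arrays. Of the 3, 2 fell in KO placebo against WT placebo livers and 2 rose with SAMe. Cela1 was among both, at -1.53 (adjusted p = 2e-06) and 0.86 (adjusted p = 0.0083). The background block and the low-background arrays both called Cela1 and Cela2a lower in KO placebo than in WT placebo livers. With SAMe the block called Cela2a higher and not Cela1, and the low-background arrays called no acinar marker. No adipocyte marker of 6 passed the filter. The 9 hepatocyte markers summed to 43859 to 47230 in KO SAMe and 46717 to 50820 in KO placebo livers, against 36709 to 46053 in WT placebo livers. Of these 9, 4 rose and 2 fell in KO placebo against WT placebo livers (Hnf4a, Ahsg, Cyp2e1 and Trf, against Alb and Asgr1), and 2 rose and 1 fell with SAMe (Alb and Asgr1, against Hnf4a). On the low-background arrays Ahsg and Hnf4a were the hepatocyte markers still called between KO placebo and WT placebo livers, and the calls of Clec4f, Stab2, Pecam1 and Sox9 in that comparison ended. The background block ended the falls of Alb and Asgr1 there. With SAMe, against KO placebo livers, limma called 0 hepatocyte markers under the block and 0 on the low-background arrays. At an unadjusted p under 0.05 these counts were 4 and 1. The part of cell makeup in the members' changes was not tested.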

How the data were processed

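Liver RNA of 19 mice was measured on Illumina mouse BeadChips after biotin labelling, per the labels' protocols. The authors deposited a table of raw bead intensity and a detection p-value for each of 45281 probes and each array, and a table of log2 values for 17592 probes. Recomputing showed the log2 table to be the quantile-normalized log2 of the deposited raw intensity, with a largest difference of 0, and it was used as an alternative. The sources used here do not name the scanner software.

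With limma 3.58.1 (R 4.3.3), normexp used the detection p-values to estimate background (offset 16), and arrays were then quantile normalized and logged to base 2, which hides any shift common to most genes. The filter required 5 arrays with a detection p under 0.05. One fit of lmFit and eBayes over the 3 groups gave two-sided tests, with Benjamini-Hochberg adjustment over 14295 probes. It was tested on simulated data. P-values measure the spread between animals, and precision is limited by the number of arrays. The platform annotation named 14737 probes with 1 symbol and 10 with several, while 2845 probes of the log2 table had no name here. RefSeq GRCm38.p6 held 14715 of the gene identifiers, and 0 symbols differed. Lists use the brightest probe of a gene. Named genes were every member probe, Mt2, up to 4 genes per list and comparison by moderated t, and the 3 genes most like Tsc22d3 and Fkbp5. Mfsd2a, Pck1, Nfkbia, Fos, Dbp, Serpina6 and the cell type markers were outside that rule in at least 1 comparison and were named after their values were seen. Members and lists were chosen with earlier results of these data known. The counts of the gene lists under other settings were added after the data were seen. Other alternatives changed the background correction, normalization, filter, probe choice, array weights, background set, ID letter and each array in turn.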

Additional observations from a re-analysis of the deposited data

Results flagged for a closer look

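The Mt2 value of KO SAMe replicate 5 stood apart from the other 4 KO SAMe livers, at a log2 intensity of 6.44 against 4.91 for the next. The gap was 0.721 of the group's range, above the limit of 0.71 for 5 arrays. Among 33 groups of arrays examined this was the only one, and chance flags about 1 in 20. The same liver had the highest Fkbp5 value of the study, 6.83.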

How the results depend on the processing

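No paired analysis was possible because the labels give the groups no shared replicate numbers. Of 406 alternative values of the member probes and Mt2, 333 kept their direction and side of the threshold, 40 lost the call, 17 gained one and 16 changed sign. The other named genes had 722, 85, 20 and 7 of 834.

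Without the filter, the member probes past the threshold numbered 3 in KO placebo against WT placebo livers and 1 in KO SAMe against KO placebo livers. With 45281 tested, all probes called then numbered 4780 (10.6%) between KO placebo and WT placebo and 1598 (3.53%) between KO SAMe and KO placebo. Between KO SAMe and WT placebo they numbered 1535 (3.39%). Under the background block there were 3 (Sgk1 at the threshold) and 1 member probes in the first 2 comparisons. All probes called were 4900 (34.3%) between KO placebo and WT placebo and 1160 (8.11%) between KO SAMe and KO placebo. Within the low-background arrays, KO placebo against WT placebo gave 2342 probes (16.4%) and 1 member probe. There KO SAMe against KO placebo gave 6 probes (0.042%) and by limma 0 member probes, with 3 at an unadjusted p under 0.05. With the ID letter as a random block 1 member probe was called for KO placebo against WT placebo, where 31.5% of all probes were called. Array weights gave 6 member probes for KO SAMe against KO placebo, where 23.6% of all probes were called.

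Scaling moved directions. KO SAMe against KO placebo gave 1358 higher and 1097 lower probes as reported, 230 and 4241 (4471 in all) with arrays set to a common median of all probes, which moved the median of all probes to -0.22, and 3236 and 1166 (4402 in all) with a common median of the probes past the filter, which moved it to 0.15. Member probes called under the first scaling were 6, all lower. For KO placebo against WT placebo the splits were 2787 and 2777 as reported, 5361 and 1215, and 2285 and 5868, with medians of 0.19 and -0.19. For KO SAMe against WT placebo they were 1204 and 1117, 732 and 950, and 891 and 1236. Errfi1 for KO placebo against WT placebo turned to -0.079 under the second scaling. For KO SAMe against WT placebo the 2 scalings gave -0.15 and -0.16 for Hsd11b1 probe 1, -0.19 and -0.20 for probe 2, -0.0013 and -0.012 for Tsc22d3 probe 2, and -0.0084 and -0.020 for Hspa8.

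Other changes of sign were, apart from Per2, in values that did not pass on all arrays. For KO SAMe against KO placebo, Mt2 was at 0.0083 with the background block and 0.031 within the low-background arrays, where Fkbp5 was at 0.17 and Hspa8 at 0.076. Within ID letter G, Hsd11b1 probe 2 was at -0.0090, Hspa8 at 0.26, Fkbp4 at 0.10 and Per2, called lower in the fit on all arrays, at 0.19 (3 arrays). For KO SAMe against WT placebo, Tsc22d3 probe 2 was at -0.068 with array weights, -0.012 with the background block, -0.031 within the low-background arrays and -0.00022 within ID letter K, where Hsd11b1 probe 3 was at 0.029 and Serpina6 at 0.11. The cause was not tested.

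Leaving out 1 array in turn, the counts ranged from 4887 to 5692 probes and from 3 to 6 member probes in KO placebo against WT placebo livers (3 without KO placebo replicate 2 or 3 or WT placebo replicate 1), from 1668 to 2751 and from 1 to 4 for KO SAMe against KO placebo (1 without KO SAMe replicate 4), and from 1490 (without KO SAMe replicate 2) to 2524 and from 2 to 3 for KO SAMe against WT placebo. Fkbp5 for KO SAMe against KO placebo ranged from -0.45 to 0.060. For KO SAMe against WT placebo, Hsd11b1 probe 1 ranged from -0.019 to 0.079, probe 3 from -0.10 to 0.030 and Tsc22d3 probe 2 from -0.12 to 0.082.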
